A study of Mus musculus with 29 samples.

Results

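The 35 genes described here encode proteins that build ribosomes in the nucleolus of mouse cells. They were chosen by gene symbol, which was matched to the Ensembl gene identifiers of the count tables through the GENCODE M21 annotation. The choice used no expression threshold, but earlier results of these data were known when it was made. All 35 were found among the 47357 gene identifiers that the crypt, tissue and organoid tables share, and all 35 passed the filter on low counts in each set. They fall into 6 roles: RNA polymerase I (2 genes), nucleolar scaffold and chaperone proteins (3), proteins of the small nucleolar ribonucleoprotein particles, or snoRNPs (6), assembly factors of the small ribosomal subunit (10), assembly factors of the large subunit (12), and nucleolar regulators (2).

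The series asked how the intestine responds to loss of Rnaseh2b, alone or together with loss of Trp53. The Rnaseh2b product belongs to RNase H2, which cuts ribonucleotides out of genomic DNA. Messenger RNA of C57BL/6 mice was sequenced in 29 libraries of 8 groups. Epithelial crypts of the small intestine came from mice of 52 weeks, 4 labelled H2B flox/flox (control) and 4 labelled H2BdIEC, in which Rnaseh2b is deleted in the intestinal epithelium. Whole tissue came from 4 H2B/p53flox/flox mice (control) and from 4 H2B/p53dIEC mice, which lack Rnaseh2b and Trp53 in the epithelium and gave a tumor and adjacent unaffected tissue each. Organoids, which are epithelial cultures grown from the intestine, were sequenced as 3 control, 3 H2BdIEC and 3 H2B/p53dIEC libraries. The control organoids carry WT in their titles and H2B/p53flox/flox as their genotype label, while the series' design names H2Bfl/fl, and the control tissue is labelled as adjacent normal tissue although its mice carry intact floxed genes. The Cre driver, the ages of the tissue and organoid mice, and whether the organoid libraries of a genotype came from separate mice are not given in the labels. P-values for organoids therefore rest on library-to-library spread alone, possibly only technical.

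Ribosome production starts when RNA polymerase I transcribes the long precursor of the ribosomal RNAs. Box C/D snoRNPs methylate and box H/ACA snoRNPs pseudouridylate that precursor, and large assemblies of processing factors fold and cut it into the small and the large subunit. Rapidly growing cells, such as the progenitors at the base of intestinal crypts, run this pathway at a high rate. MYC is known as an activator of many of its genes, and p53 responds to defects in it through ribosomal proteins that bind Mdm2.

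The promoters of 7 members held the letters CACGTG, the E-box bound by MYC with its partner MAX, and these sites are shown because MYC is the best known activator of the pathway. Both strands were searched in RefSeq promoter windows that run from 250 bases before to 50 bases after each annotated start, on GRCm38.p6, for the 30 members that had a window (Bop1, Fbl, Npm1, Rrp12 and Rrs1 had none). The share was 7 of 30 members, or 23.3%, against 18.2% of 121 other ribosome biogenesis genes and 8.09% of the 27025 genes with windows of the same length. Each line below gives 30 bases in the direction of transcription, with the E-box in capitals.
Mybbp1a: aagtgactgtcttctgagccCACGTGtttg
Nle1: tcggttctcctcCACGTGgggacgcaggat
Nop2: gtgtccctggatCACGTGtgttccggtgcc
Pes1: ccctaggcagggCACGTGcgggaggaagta
Tsr1: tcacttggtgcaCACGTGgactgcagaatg
Utp20: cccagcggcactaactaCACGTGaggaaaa
Wdr43: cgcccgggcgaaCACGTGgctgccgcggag

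On the plus strand these windows lie at chr11:72441347-72441376 for Mybbp1a, chr6:125131811-125131840 for Nop2, chr11:3963965-3963994 for Pes1, chr11:74898092-74898121 for Tsr1 and chr17:71616220-71616249 for Wdr43. On the minus strand they lie at chr11:82908355-82908384 for Nle1 and chr10:88826765-88826794 for Utp20. Counted from the annotated start, the E-box began at position 3 in Pes1, 18 in Wdr43, 24 in Nle1, 25 in Tsr1, 38 in Utp20 and 41 in Mybbp1a, inside the transcribed sequence, and 60 bases upstream in Nop2 (position -60). Other motifs were searched in the same way, and their sites can overlap one another. The ETS motif CCGGAAG was in 9 of 30 members (30%, against 47.1% of the other ribosome biogenesis genes and 9.93% of all genes), the GC box GGGCGG in 22 (73.3%, against 66.1% and 38.2%) and the YY1 motif ATGGCGG in 5 (16.7%, against 12.4% and 4.69%). The NRF1 motif GCATGCGC was in 0 of 30 (9.92% and 3.05%), the CCAAT box in 9 (30%, against 36.4% and 41.1%) and the TATAAA box in 3 (10%, against 6.61% and 15.7%). A match describes these letters and does not show that a factor binds there.

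A minority of the members host other RNA genes. 8 of 35 (22.9%) contain small nucleolar RNA genes on their own strand, 23 in all, against 277 of the 21620 protein-coding genes found in all 3 sets (1.28%). Nop56 holds 5 of them, Nop58 4, Ncl, Wdr43 and Gnl3 3 each, Tsr1 and Ppan 2 each, and Dkc1 1. The genes lie on 16 chromosomes. Sequences at least 90% identical over at least 300 bases were found for 13 members in other annotated transcripts outside genes that overlap them, with 8 for Npm1, 5 for Nop56, 4 for Wdr12 and 3 each for Fbl and Rrs1, so reads of these genes could be shared with such copies. The exons of 18 members overlap a gene on the other strand. The libraries were made with a stranded kit, but the strand setting of the counting is not stated.

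Depth ranged up to 41504298 counts per library and was at least 13219451 counts in all libraries but 2. Control tissue 1320 held 401365 counts, so that the 35 members had 2 to 64 counts each there, and H2BdIEC organoid A held 5774771. In crypts the H2BdIEC libraries (15545059 to 18817537 counts) were shallower than the control libraries (23118463 to 25913155). The targeted genes went with the labels: Rnaseh2b lay at 6.87 to 14.4 CPM, the counts scaled to the size of their library, in control and 2.13 to 2.71 CPM in H2BdIEC crypts, and for tissue at 12.8 to 24.1 CPM in controls, 2.49 to 5.43 CPM beside tumors and 2.53 to 6.20 CPM within them. In organoids it lay at 14.8 to 18.3, 4.97 to 7.05 and 1.08 to 2.15 CPM in control, H2BdIEC and H2B/p53dIEC libraries, and Trp53 at 9.97 to 11.8 CPM in the H2B/p53dIEC organoids against 78.3 to 115.3 CPM in the others. Tissue Trp53 lay at 39.1 to 49.6 CPM in controls, 13.7 to 27.8 CPM beside tumors and 12.6 to 29.9 CPM within them.

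Nucleophosmin led the list in every group per kilobase of main transcript, but not by CPM alone. Per kilobase of the annotated main transcript, Npm1, the nucleophosmin gene, ranked 1 of 35 in all 8 groups, with 153 ± 11.4 CPM per kb in control crypts (SD, n = 4), 111 ± 6.81 in control tissue (n = 4), 341 ± 65.5 in tumors (n = 4) and 266 ± 7.61 in control organoids (n = 3). Ncl, the nucleolin gene, ranked 2 in control tissue, adjacent tissue and all 3 organoid groups. It ranked 3 in tumors behind Nhp2, and 6 and 8 in control and H2BdIEC crypts. By CPM, without division by length, Ncl was the highest member in all tissue and organoid groups and Npm1 in both crypt groups. In tumors the mean was 817 CPM for Ncl and 556 CPM for Npm1. Per kilobase of total exon length, Ncl lay above Npm1 in H2B/p53dIEC organoids (175 against 164 CPM per kb). The main transcript was the longest of the best-ranked principal ones, 8202 bases for Ncl and 1633 for Npm1, so their order depends on this choice. Wdr12 ranked 35 in all 8 groups, from 1.21 ± 0.45 CPM per kb in control tissue to 3.89 ± 0.09 in H2B/p53dIEC organoids, over an annotated transcript of 10012 bases.

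The list as a whole was low in whole tissue and high in organoids. The mean log2 CPM over the 35 members was 4.07 to 4.55 in the 4 control tissue libraries, 4.50 to 5.28 in the tissue beside tumors and 5.75 to 5.98 within tumors. It was 4.86 to 4.98 in control crypts, 4.69 to 5.07 in H2BdIEC crypts, 6.30 to 6.47 in control organoids, 6.30 to 6.51 in H2BdIEC organoids and 6.73 to 6.75 in H2B/p53dIEC organoids. The 4 tumors did not overlap the other tissue libraries, nor did the 3 H2B/p53dIEC organoids overlap the other organoids. For 33 members the highest group mean was in an organoid group (30 of them in H2B/p53dIEC organoids), for 2 in tumors, and for 26 the lowest was in control tissue. Shares over all genes were not computed for these counts, so they cannot be read as particular to the members. For 32 members every organoid library lay above every crypt library, which held for 50.1% of the 12474 genes tested in both sets. The 3 sets were normalized separately, so levels set across them carry no test.

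**Figure D1:**
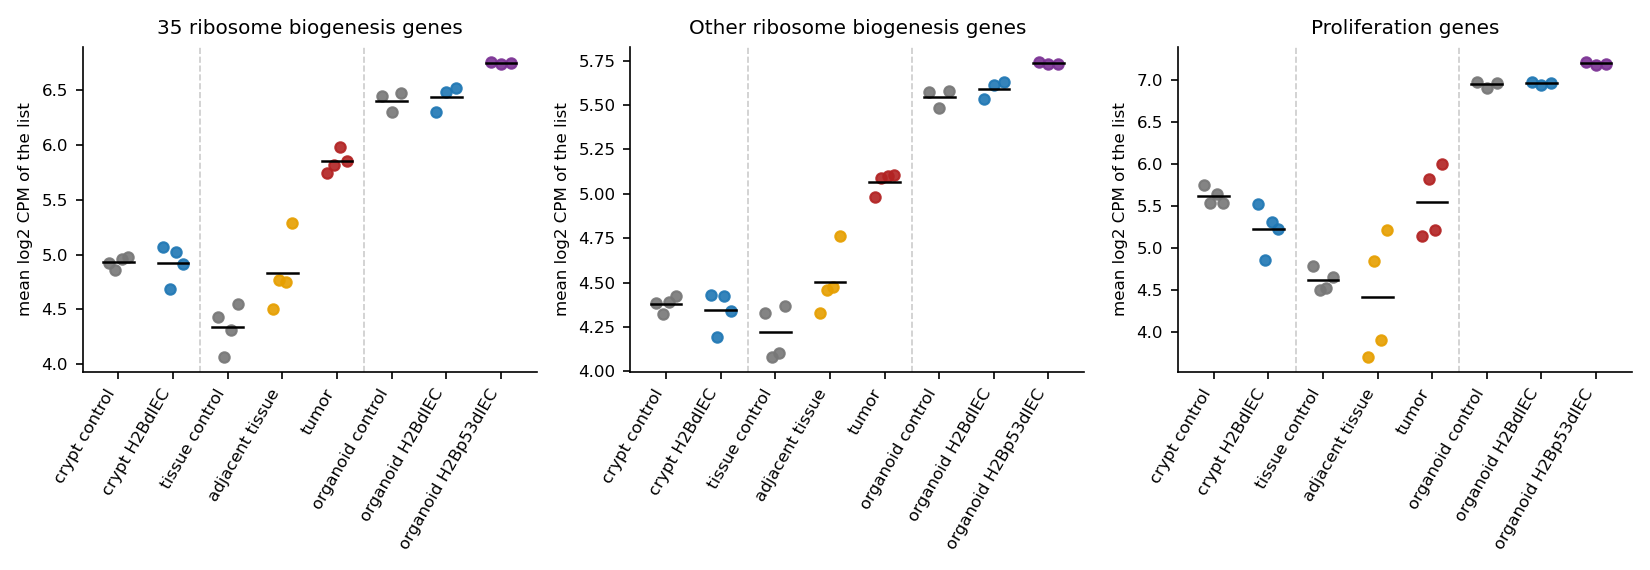
Mean log2 CPM (y axis) in every library (points) of the 8 groups (x axis, black bar the group mean, dashed lines between the 3 sets) for the 35 members, the 147 other ribosome biogenesis genes and 22 proliferation genes. The 4 tumors lie at 5.75 to 5.98 for the members, above all other tissue libraries, and the 3 H2B/p53dIEC organoids at 6.73 to 6.75, above all other organoids.

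The groups also differed in how tightly the members were held between libraries. The median coefficient of variation over the 35 genes was 7.53% in control crypts, 14.8% in H2BdIEC crypts, 23.1% in control tissue, 25.5% in adjacent tissue, 15.0% in tumors, 7.87% in control organoids, 9.09% in H2BdIEC organoids and 2.84% in H2B/p53dIEC organoids. The shallow control tissue 1320 and the shallow H2BdIEC organoid A are part of these spreads.

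The first question was how the members differ between the tumor and the unaffected tissue next to it in each of the 4 H2B/p53dIEC mice. Ribosome biogenesis genes rose in tumors. The quasi-likelihood test of edgeR, not paired by mouse, was used with Benjamini-Hochberg adjustment over 17666 genes. At an adjusted p under 0.05, 31 of 35 rose and 0 fell, while 23.0% of all genes tested rose and 24.0% fell. All 35 log2 fold changes were positive, from 0.20 to 1.87 with a median of 1.03, against a median of -0.002 over all genes. Both RNA polymerase I genes, all 3 scaffold and chaperone genes, all 6 snoRNP genes, 9 of 10 small subunit factors, 9 of 12 large subunit factors and both regulators rose. For 28 members the 4 tumors lay above all 4 adjacent libraries, which held for 19.6% of all genes. In bulk tissue, a change in the number of cells of a type and a change in RNA per cell cannot be told apart.

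Within single mice, 136 of 140 ratios of tumor to adjacent tissue were above 1, against 50.1% of the ratios of all genes. Of the members, 32 were higher in the tumor of all 4 mice, against 29.2% of genes. The exceptions were Heatr1 in mice 1349 and 1322 and Ddx21 and Noc3l in mouse 1349. The median log2 ratio over the members was 0.58 in mouse 1349, 1.19 in mouse 1323, 0.97 in mouse 1322 and 1.29 in mouse 1319. Mouse 1349, whose adjacent tissue had the highest member levels of the 4, gave the smallest median.

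The catalytic core of RNA polymerase I is formed by the products of Polr1a and Polr1b. Polr1a stood at 14.3, 10.7, 10.7 and 16.1 CPM in the control tissue of mice 1315, 1316, 1320 and 1321, at 24.6, 15.4, 18.2 and 19.3 CPM in the adjacent tissue of mice 1349, 1323, 1322 and 1319, and at 42.6, 50.5, 51.8 and 44.8 CPM in their tumors, and libraries are given in these orders below. All 4 tumors lay above all other tissue libraries (log2 fold change 1.29 ± 0.18, adjusted p = 0.000169 for tumor against adjacent tissue). Polr1b also rose (log2 fold change 0.84 ± 0.25, adjusted p = 0.0154).

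Npm1, whose protein is a chaperone of histones and ribosomal proteins, was at 196, 173, 171 and 182 CPM in control tissue, 286, 298, 207 and 186 CPM in adjacent tissue and 604, 656, 557 and 407 CPM in tumors. The tumor of mouse 1319 was the lowest of the 4 and still lay above every adjacent library (log2 fold change 1.19 ± 0.20, adjusted p = 0.000514). Ncl, which encodes an RNA-binding protein of the nucleolus, was at 279, 205, 163 and 257 CPM, 534, 392, 318 and 308 CPM and 923, 875, 801 and 670.1 CPM in the same groups. The 3 groups did not overlap for Ncl, and the rise from adjacent tissue to tumor was 1.07 ± 0.23 on the log2 scale (adjusted p = 0.00225). Nolc1, a chaperone of snoRNPs, rose by 1.03 ± 0.25 (adjusted p = 0.00495).

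Among the snoRNP genes, the core protein Nhp2 of the H/ACA particles gave the highest fold change of all 35 members. Nhp2 was at 19.3, 20.2, 18.7 and 19.3 CPM in control tissue, 41.6, 28.5, 30.8 and 19.9 CPM in adjacent tissue and 129, 98.1, 134 and 81.6 CPM in tumors. Every tumor lay above every adjacent library, with a gap between 41.6 and 81.6 CPM (log2 fold change 1.87 ± 0.22, adjusted p = 5.23e-05). Nop56, a core protein of the C/D particles, was at 26.9, 18.1, 29.4 and 27.7 CPM, 37.9, 23.2, 31.5 and 27.9 CPM and 84.01, 91.2, 91.4 and 93.1 CPM, with tumors clear of both other groups (log2 fold change 1.58 ± 0.18, adjusted p = 4.52e-05). The C/D methyltransferase Fbl rose by 1.15 and the H/ACA protein Gar1 by 1.23. The rises of the C/D protein Nop58 (log2 fold change 0.74 ± 0.26, adjusted p = 0.0338) and the pseudouridine synthase Dkc1 (log2 fold change 0.78 ± 0.26, adjusted p = 0.0253) were the smallest of the 6. For Nop58, Dkc1 and Gar1 the tumor and adjacent libraries overlapped although the genes passed the test.

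Of the small subunit factors, Noc4l, a partner of Nop14 in early assembly, was at 13.5, 17.3, 26.8 and 15.6 CPM in control tissue, 28.1, 18.04, 22.1 and 17.6 CPM in adjacent tissue and 55.7, 51.9, 49.9 and 57.9 CPM in tumors. Control and adjacent tissue overlapped only through control 1320, the library of 401365 counts, and all tumors lay above both groups (log2 fold change 1.32 ± 0.20, adjusted p = 0.000226). Bysl, which acts in maturation of the small subunit (1.31), the processome components Wdr43 (1.11), Utp20 (0.98) and Wdr75 (0.97), the late factor Tsr1 (0.998), Nop14 (0.81), the U3 snoRNP protein Rrp9 (0.71) and Rrp12, a factor in precursor maturation and export (0.66), rose by these log2 amounts. Heatr1, another processome component, was the exception, at 15.2, 9.49, 5.35 and 17.6 CPM, 24.0, 13.2, 17.5 and 18.3 CPM and 21.3, 25.4, 16.4 and 21 CPM. Its tumor and adjacent libraries overlapped (log2 fold change 0.20 ± 0.27, adjusted p = 0.556), and in mice 1349 and 1322 the tumor value was below the adjacent one.

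Of the large subunit factors, Noc2l, an early assembly factor, was at 42.3, 32.7, 32.1 and 45.04 CPM in control tissue, 86.2, 67.6, 65.2 and 47.6 CPM in adjacent tissue and 132, 158, 172 and 131 CPM in tumors, and the 3 groups did not overlap (log2 fold change 1.15 ± 0.19, adjusted p = 0.000449). Ppan, a factor of early large subunit particles, was at 14.4, 12.7, 10.7 and 18.5 CPM, 27.8, 27.9, 25.6 and 20.4 CPM and 45.9, 58.8, 61.01 and 46.98 CPM, again without overlap (log2 fold change 1.06 ± 0.18, adjusted p = 0.000498). Rrs1, which helps to load a ribosomal RNA and its proteins (1.33), the nucleolar protein Rrp1b (1.29), the PeBoW complex members Wdr12 (1.12) and Pes1 (0.96), the RNA methyltransferase Nop2 (0.92), Nle1, a partner of the remodelling ATPase Mdn1 (0.85), and Nop16 (0.62) rose by these log2 amounts. Bop1, the other PeBoW member, was at 40.3, 34.99, 53.5 and 44.5 CPM, 54.3, 28.96, 49.6 and 41.6 CPM and 55.9, 37.5, 57.8 and 59.7 CPM. The 3 groups overlapped for Bop1 (log2 fold change 0.27 ± 0.21, adjusted p = 0.31), so that 2 of the 3 genes of this complex passed the test. Noc3l (log2 fold change 0.58 ± 0.24, adjusted p = 0.0645) and the RNA helicase Ddx21 (log2 fold change 0.59 ± 0.27, adjusted p = 0.0871) did not pass the test either.

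Both regulators rose. Mybbp1a, a nucleolar protein that binds Myb and p53, was at 56.5, 45.2, 53.5 and 57.5 CPM in control tissue, 114, 80.8, 73.01 and 64.7 CPM in adjacent tissue and 183, 246, 181 and 168 CPM in tumors, and the 3 groups did not overlap (log2 fold change 1.23 ± 0.19, adjusted p = 0.000313). Gnl3, which encodes the nucleolar GTPase nucleostemin, was at 15.8, 9.70, 13.4 and 18.6 CPM, 41.3, 27.5, 22.04 and 19.1 CPM and 58.8, 79.1, 48.7 and 55.9 CPM, also without overlap (log2 fold change 1.14 ± 0.26, adjusted p = 0.00392).

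**Figure D2:**
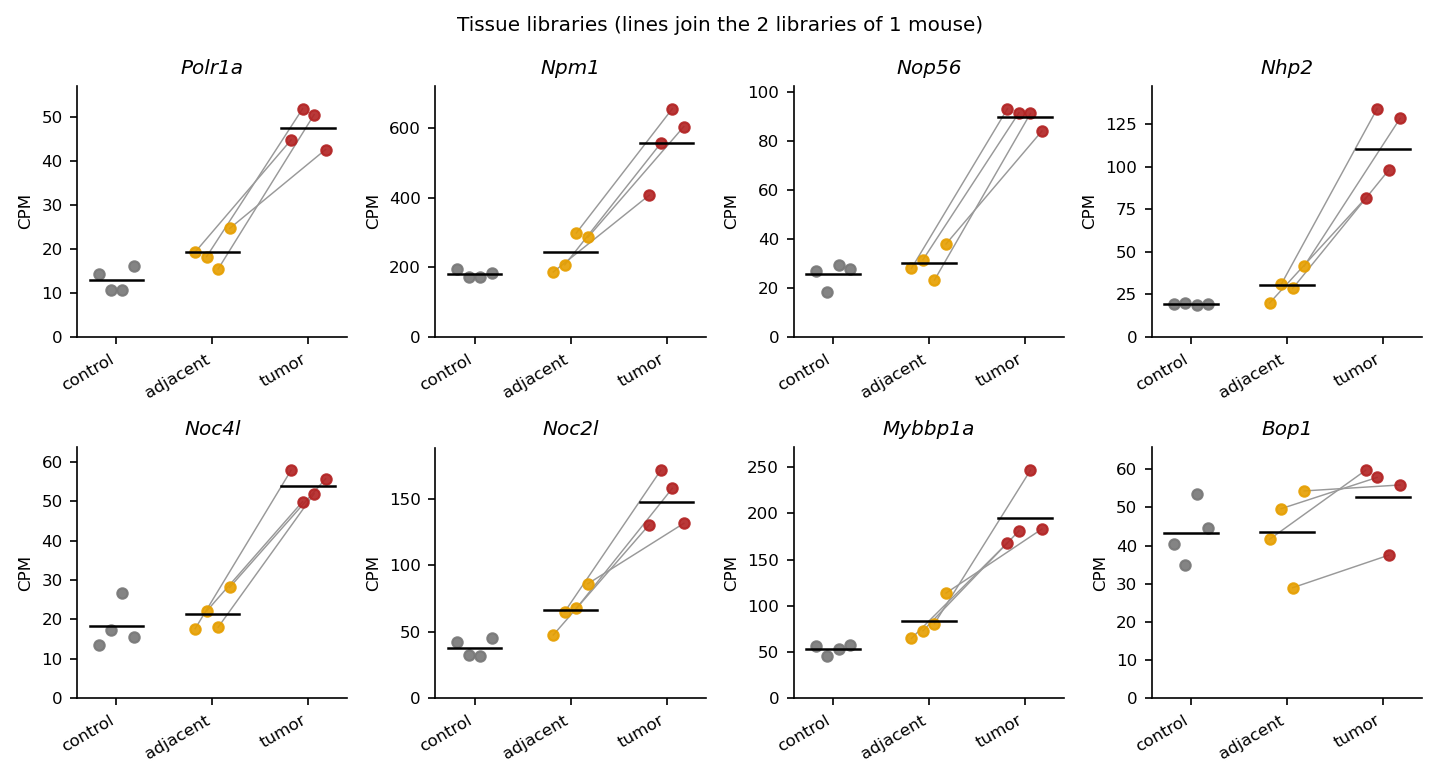
CPM (y axis, from 0) in each tissue library (points, black bar the group mean) for 8 members, with lines joining the adjacent tissue and the tumor of the same mouse. For Polr1a, Npm1, Nop56, Nhp2, Noc4l, Noc2l and Mybbp1a all 4 tumors lie above all adjacent libraries, while for Bop1 the groups overlap.

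Other genes of the pathway, taken from a list of 147, were read in the same fit. Of these, 85 rose and 4 fell, with a median log2 fold change of 0.59 against 1.03 for the members. The 3 with the smallest p were Nip7 (1.25, adjusted p = 0.000209), Ddx56 (0.91, adjusted p = 0.000225) and Mrto4 (1.44, adjusted p = 0.000253). Myc was at 26.9, 13.2, 21.6 and 12.7 CPM in adjacent tissue and 50.7, 88.3, 65.1 and 49.5 CPM in tumors and rose (1.77, adjusted p = 0.0028). Mycn rose as well (2.23, adjusted p = 0.00692), and Mycl gave 0.35 (adjusted p = 0.109). Of the members with an E-box 7 of 7 rose, with a median of 0.98, and 20 of the 23 members whose promoter lacked the letters rose, with a median of 1.07. The 8 members that hold snoRNA genes all rose, with a median of 1.07, and 23 of the other 27 rose, with a median of 0.98.

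Cell type markers moved between tumor and adjacent tissue as well. Stem cell markers were higher (9 of 10 rose, their sum going from 207 to 464 CPM beside the tumors up to 1381 to 2064 CPM within them), as were 14 of 22 proliferation genes (median 0.997), among them Mki67 (0.86, adjusted p = 0.0157), and 4 of 6 fibroblast markers (240.7 to 855 CPM and 1285 to 10570 CPM). All 8 smooth muscle markers fell (from sums of 2947 to 4399 CPM down to 320 to 860.1 CPM), as did 9 of 12 enterocyte markers and 7 of 9 general epithelial markers (18100 to 26520 CPM and 7216 to 12800 CPM). Goblet cell markers (5 of 7 fell, from 10470 to 19960 CPM down to 1001 to 5751 CPM) and markers of the distal small intestine (7 of 7 fell, with a median of -5.43) were lower in tumors. The distal markers summed to 13730, 716.6, 10690 and 11230 CPM beside the tumors of mice 1349, 1323, 1322 and 1319 and to 160.5, 96.3, 17.7 and 100.3 CPM within them. Markers of the proximal small intestine (2 of 7 rose) summed to 110.4, 2287, 122 and 230.2 CPM beside the tumors and to 1630, 141, 203 and 1320 CPM within them. The adjacent tissue of mouse 1323 thus stood apart from the other 3 in both regional lists, and without it 29 members rose with a median of 0.96. The tissue titles carry SI and do not place a sample along the gut, so position and tumor state cannot be told apart here. The epithelial and smooth muscle markers were far above 0 in all tissue libraries, so these are mixed tissues, and the part of tissue makeup in the members' rise was not tested.

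Adjacent tissue was compared with the tissue of floxed control mice to ask whether the members already differ outside the tumors. The 2 tissue comparisons share the 4 adjacent libraries, so their values are given side by side and not as independent results. By edgeR, 0 of 35 members passed an adjusted p of 0.05, while 0.792% of genes tested rose and 0.277% fell. At an unadjusted p under 0.05, 21 members were higher and 0 lower, against 10.6% and 6.88% of all genes, and DESeq2 called 7 higher (Ncl, Rrp12, Nop14, Noc2l, Ppan, Gnl3 and Mybbp1a) and 0 lower, against 3.95% and 1.65% of genes. All 35 log2 fold changes were positive, with a median of 0.53 (0.04 over all genes). For 8 members, those 7 and Pes1, all 4 adjacent libraries lay above all 4 control libraries, against 8.22% of all genes.

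Rrp12 had the smallest adjusted p in this comparison. It was at 7.24, 7.26, 10.7 and 9.50 CPM in control tissue, 21.2, 13.6, 13.5 and 13.6 CPM in adjacent tissue and 23.97, 24.8, 21.8 and 27.01 CPM in tumors. The adjacent library of mouse 1349 stood apart from the other 3, and all 4 lay above the control libraries (log2 fold change 0.91 ± 0.21, adjusted p = 0.0595). The values of Ppan (log2 fold change 0.78 ± 0.19, adjusted p = 0.0602), Ncl (log2 fold change 0.77 ± 0.23, adjusted p = 0.106), Mybbp1a (log2 fold change 0.64 ± 0.19, adjusted p = 0.113), Nhp2 (log2 fold change 0.63 ± 0.22, adjusted p = 0.174) and Polr1a (log2 fold change 0.53 ± 0.19, adjusted p = 0.177), whose libraries are given above, were led by mouse 1349 in all but Ppan, where mice 1349 and 1323 were alike. Control 1320, with its low counts, was part of the comparison, and without it the count was also 0 and the median 0.50. Without the 4 tumors in the fit, Noc2l and Ppan passed (2 members).

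By edgeR, 0 of the 147 other ribosome biogenesis genes passed the test here (26 higher and 0 lower at an unadjusted p under 0.05, median 0.25), the 3 smallest p being those of Nol6 (0.74, adjusted p = 0.0543), Nom1 (0.64, adjusted p = 0.0879) and Utp4 (0.86, adjusted p = 0.0886). Myc (0.26, adjusted p = 0.775), Mycl (0.15, adjusted p = 0.708), Mycn (adjusted p = 1) and Mki67 (-0.44, adjusted p = 0.41) did not pass. Of the marker lists, 2 of 5 endothelial markers and 1 of 12 enterocyte markers rose, and no marker of the stem, proliferation, smooth muscle, fibroblast, proximal or distal lists passed the test. Without the adjacent tissue of mouse 1323, which stood apart in the regional markers, 0 members passed and the median was 0.56.

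Against control tissue, tumors had 33 of 35 members higher and 0 lower, while 28.6% of genes rose and 26.1% fell, and the median log2 fold change was 1.53. For 33 members all tumors lay above all control libraries, against 27.5% of all genes. This comparison shares its tumors and its controls with the 2 above. The highest values were those of Nhp2 (2.50 ± 0.23, adjusted p = 8.56e-06), Gnl3 (2.05 ± 0.29, adjusted p = 9.61e-05) and Rrs1 (2.01 ± 0.26, adjusted p = 5.48e-05). Polr1a (1.82), Npm1 (1.62), Noc4l (1.69), Ppan (1.85) and Mybbp1a (1.87) had the smallest p of their roles. Ddx21 (1.18, adjusted p = 0.00304) and Noc3l (0.93, adjusted p = 0.00778) rose here, and Heatr1 (0.68, adjusted p = 0.0537) and Bop1 (0.32, adjusted p = 0.226) did not pass. Ddx21 was at 58.95, 44.01, 37.5 and 65.9 CPM in control tissue, 122, 71.7, 65.5 and 60.6 CPM in adjacent tissue and 118, 152, 75.5 and 134 CPM in tumors, so that the adjacent tissue of mouse 1349 was just above the tumor of the same mouse. Noc3l was at 9.08, 5.58, 5.35 and 10.4 CPM, 13.3, 9.29, 9.87 and 8.69 CPM and 12.8, 14.2, 18.1 and 16.3 CPM. Of the other ribosome biogenesis genes, 107 of 147 rose and 4 fell (median 0.89), with Ddx56 (1.25), Nip7 (1.70) and Mrto4 (1.94) at the smallest p. Myc (2.03, adjusted p = 0.00115), Mycn (2.22, adjusted p = 0.00884) and Mycl (0.50, adjusted p = 0.0304) rose, and Mki67 gave 0.42 (adjusted p = 0.185).

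**Figure D3:**
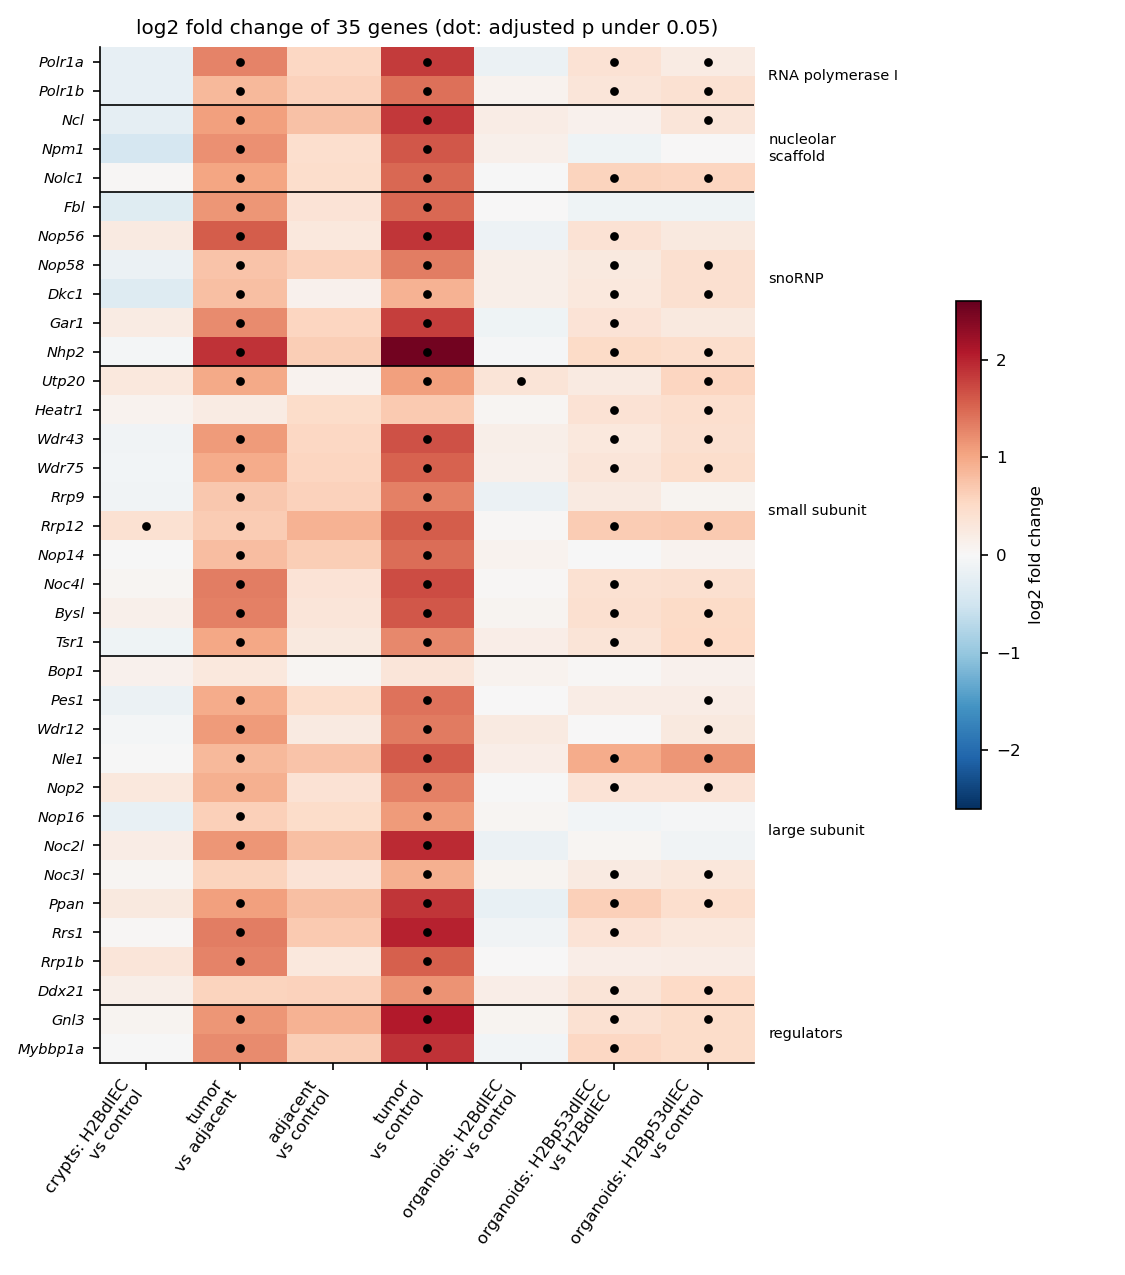
Log2 fold change (colour, red higher and blue lower) of the 35 members (rows, grouped by role) in the 7 comparisons within a set (columns), with a dot where the adjusted p was under 0.05. The tumor columns hold 31 and 33 dots, the H2B/p53dIEC organoid columns 23 and 24, and the crypt and H2BdIEC organoid columns 1 each.

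In crypts, where the 8 smooth muscle markers summed to only 13.3 to 30.4 CPM, deletion of Rnaseh2b alone was compared with floxed controls at 52 weeks of age. Few members differed: 1 of 35 rose and 0 fell, against 5.16% and 4.87% of 14596 genes, and the median log2 fold change was -0.01. At an unadjusted p under 0.05, 4 of 35 were higher and 2 lower, against 14.3% and 14.5% of all genes. DESeq2 called 4 higher (Rrp12, Nop56, Nop2 and Rrp1b) and 1 lower (Npm1), against 9.05% and 7.60% of genes. For 4 members all H2BdIEC crypts lay above all controls and for 1 below (8.54% and 10.3% of genes). By role, the median was -0.21 for RNA polymerase I, -0.24 for the scaffold and chaperone genes, -0.10 for the snoRNP genes, 0.02 for the small subunit factors, 0.08 for the large subunit factors and 0.03 for the regulators.

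The member that rose was Rrp12, at 17.1, 16.6, 16.4 and 17.5 CPM in control crypts 1 to 4 and 24.8, 22.9, 21.9 and 18.9 CPM in H2BdIEC crypts 1 to 4. All H2BdIEC libraries lay above all controls (log2 fold change 0.39 ± 0.10, adjusted p = 0.0371), but the call was lost in 9 of 13 alternative settings, among them leaving out any control or any of H2BdIEC 1 to 3. Rrp1b was at 17.9, 16.4, 18.1 and 16.8 CPM and 24.2, 21.1, 21.4 and 19.7 CPM, and Nop56 at 52.3, 55.6, 57.4 and 61.8 CPM and 70.9, 62.8, 69.1 and 65.8 CPM. Neither overlapped between the groups, and neither passed the test (log2 fold change 0.32 ± 0.10, adjusted p = 0.0585, and log2 fold change 0.24 ± 0.09, adjusted p = 0.0925, in that order). Nop2 gave 0.26 (adjusted p = 0.0736).

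Npm1 pointed the other way, at 244, 228, 259 and 270.4 CPM in control and 204, 133, 206 and 199 CPM in H2BdIEC crypts. All 4 H2BdIEC libraries lay below the controls, with library 2 far below the other 3 (log2 fold change -0.43 ± 0.15, adjusted p = 0.0809). Dkc1 gave -0.33 (adjusted p = 0.16) and Fbl -0.31 (adjusted p = 0.185). Polr1a was at 41.6, 37.8, 42.7 and 38.3 CPM and 42.3, 30.9, 32.2 and 33.4 CPM, where library 1 lay among the controls and libraries 2 to 4 below them (log2 fold change -0.21 ± 0.11, adjusted p = 0.246). Gnl3 was at 22.8, 22.3, 24.4 and 29.99 CPM and 27.9, 23.6, 28.6 and 24.8 CPM and overlapped (log2 fold change 0.08 ± 0.12, adjusted p = 0.706).

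**Figure D4:**
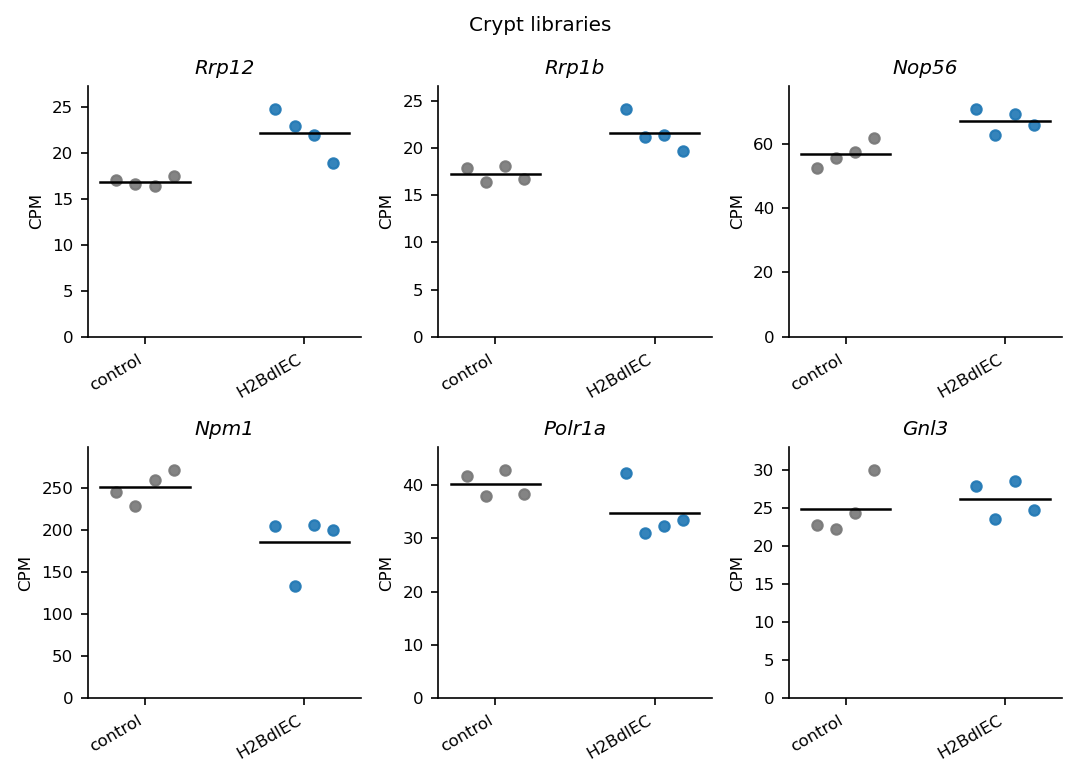
CPM (y axis, from 0) in each control and H2BdIEC crypt library (points, black bar the group mean) for 6 members. Rrp12, Rrp1b and Nop56 lie higher and Npm1 lower in all 4 H2BdIEC libraries, while Polr1a and Gnl3 overlap.

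Other gene lists were read in the same crypt fit. Of 146 other ribosome biogenesis genes 2 rose and 3 fell, against 5.16% and 4.87% of all genes. Nop53 (-0.47, adjusted p = 0.0212), Efl1 (0.41, adjusted p = 0.0217) and Nsa2 (-0.52, adjusted p = 0.0274) had the smallest p. Myc gave 0.05 and Mycl -0.46 (adjusted p = 0.153), Mycn fell (-2.16, adjusted p = 0.00206), and Mki67 gave -0.49 (adjusted p = 0.0716). Of the stem cell markers, 5 of 10 fell (summed 1206 to 1377 CPM in controls and 541.9 to 858 CPM in H2BdIEC crypts), as did 6 of 7 Paneth cell markers, 1 of 7 goblet cell markers (Muc2, -1.09) and 4 of 22 proliferation genes (median -0.33). Of the proximal small intestine markers, 3 of 7 rose, namely the iron exporter gene Slc40a1 (4.13, adjusted p = 0.0081), the transcription factor gene Pdx1 (3.995, adjusted p = 0.0171) and Fabp1, a carrier of fatty acids (1.18, adjusted p = 0.0314), and the list summed to 2406 to 4609 CPM in controls and 4401 to 6029 CPM in H2BdIEC crypts. The enterocyte marker Alpi rose too (1.36, adjusted p = 0.00731), and 0 of 6 distal markers passed. Pancreatic acinar genes summed to 0.0419 to 0.36 CPM in the controls and 7.16 to 375.6 CPM in H2BdIEC crypts, the highest being library 2, which also had the lowest Npm1, the lowest stem marker sum and the lowest mean of the members (4.69). Without library 2, 0 members passed and the median was 0.08. The part of these markers and of the shallower H2BdIEC libraries in the members' values was not tested.

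In H2BdIEC organoids 1 of 35 members (2.9%) passed the test against control, close to the share of all genes. Utp20, a processome component, rose, while 0 fell, against 2.08% and 1.97% of 15701 genes, and the median log2 fold change was 0.04. At an unadjusted p under 0.05, 6 members were higher and 0 lower, against 9.62% and 9.99% of all genes, and DESeq2 called 1 higher and 0 lower (2.74% and 2.82% of genes). For 6 members (Ncl, Utp20, Wdr43, Tsr1, Wdr12 and Ddx21) all H2BdIEC libraries lay above all controls, against 11.4% of all genes.

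Utp20 was at 53.5, 45.2 and 48.8 CPM in control organoids A, B and C, 62.7, 65.8 and 58.6 CPM in H2BdIEC organoids A, B and C, and 72.5, 69.2 and 76.7 CPM in H2B/p53dIEC organoids 1, 2 and 3, and libraries are given in these orders below. The 3 groups did not overlap (log2 fold change 0.34 ± 0.08, adjusted p = 0.0368 for H2BdIEC against control), and the call was lost in 5 of 13 alternative settings. Wdr12 was at 31.7, 33.4 and 32.9 CPM, 35.9, 38.2 and 40.98 CPM and 38.8, 39.9 and 38.1 CPM, with the controls below all other libraries (log2 fold change 0.24 ± 0.08, adjusted p = 0.112). Ncl was at 1480, 1347 and 1454 CPM, 1802, 1569 and 1547 CPM and 1761, 1767 and 1809 CPM, again with the controls lowest (log2 fold change 0.20 ± 0.07, adjusted p = 0.158). The values of Nop58 (log2 fold change 0.16 ± 0.07, adjusted p = 0.251), Polr1a (log2 fold change -0.15 ± 0.07, adjusted p = 0.269) and Gnl3 (log2 fold change 0.07 ± 0.08, adjusted p = 0.621) did not pass the test. Without the shallow library A, Wdr12 passed as well (0.28, adjusted p = 0.0299), which made 2 members. Of 147 other ribosome biogenesis genes 2 rose, Pno1 (0.32, adjusted p = 0.0194) and Nifk (0.34, adjusted p = 0.0448), followed by Brix1 (0.32, adjusted p = 0.0543), and Myc (-0.29, adjusted p = 0.154), Mycl (-0.23, adjusted p = 0.162), Mycn (-0.25, adjusted p = 0.388) and Mki67 (-0.07, adjusted p = 0.774) did not pass.

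The difference between the crypt and the organoid effect of Rnaseh2b loss was tested as an interaction in 1 fit. No member passed: edgeR and DESeq2 both called 0 of 35, against 2.30% of 17163 genes with a more positive and 1.72% with a more negative effect in crypts (4.56% and 4.68% by DESeq2), and at an unadjusted p under 0.05, 4 members were more positive and 4 more negative, against 10.3% and 9.48% of all genes. The control groups may differ in genotype between the 2 materials, as described above. Among the 35 members, Npm1 had the smallest p, at -0.54 ± 0.19 (adjusted p = 0.127). Its organoid values were 448, 424 and 430.3 CPM in control and 534, 471 and 415 CPM in H2BdIEC libraries, so that the 2 overlapped there. Nop56 gave 0.39 (adjusted p = 0.137), from 130.0, 109.6 and 121 CPM in control and 94.6, 112 and 121 CPM in H2BdIEC organoids. Ppan gave 0.47 (adjusted p = 0.18), from 20.2, 20.1, 25.2 and 22.9 CPM in control and 28.6, 28.2, 26.6 and 22.1 CPM in H2BdIEC crypts and 69.4, 61.7 and 73.9 CPM and 48.1, 60.1 and 69.6 CPM in the organoids. The groups overlapped for Ppan in organoids, and its H2BdIEC library A was the lowest. Tsr1 gave -0.28 (adjusted p = 0.245), Polr1b -0.28 (adjusted p = 0.457) and Mybbp1a 0.07 (adjusted p = 0.918). In crypts Tsr1 was at 41.03, 38.3, 42.5 and 43.4 CPM in control and 40.8, 35.9, 41.9 and 33.7 CPM in H2BdIEC libraries, Polr1b at 33.8, 28.5, 33.8 and 35.6 CPM and 35.97, 24.3, 27.4 and 25.7 CPM, and Mybbp1a at 89.7, 85.6, 98.05 and 83.3 CPM and 94.3, 81.03, 96.6 and 81.7 CPM. All 3 overlapped between the crypt groups. Of the other ribosome biogenesis genes 0 of 147 passed by edgeR (5 higher and 16 lower in crypts at an unadjusted p under 0.05), with Cebpz (-0.50, adjusted p = 0.066), Esf1 (-0.51, adjusted p = 0.0829) and Pdcd11 (0.39, adjusted p = 0.0908) at the smallest p. The effect on Mycn differed between the materials (-1.88, adjusted p = 0.00736), and Myc (0.36), Mycl (-0.20) and Mki67 (-0.39) did not pass.

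Loss of Trp53 on top of Rnaseh2b came with higher ribosome biogenesis transcripts in organoids, where the 6 fibroblast markers summed to 0.246 to 0.71 CPM, the 8 smooth muscle markers to 17.6 to 31.3 CPM and the 5 endothelial markers to 8.65 to 13.4 CPM over all 9 libraries. The titles of the control and H2BdIEC organoids share a prefix and end in letters, while those of the H2B/p53dIEC organoids lack the prefix and end in numbers, so genotype and naming series cannot be told apart in either comparison of H2B/p53dIEC organoids. Against H2BdIEC organoids, 23 of 35 members rose and 0 fell, while 13.9% of genes rose and 15.4% fell. The count was 15 without H2BdIEC B or without H2B/p53dIEC 1 and 14 without H2B/p53dIEC 2, and 12 of the 23 kept their call under all 12 alternatives. The calls of Noc3l (lost in 6 of 12), Gar1, Rrs1 and Nop58 (5 of 12 each) and Dkc1 (4 of 12) were lost most often. The median log2 fold change was 0.32 (0.004 over all genes), with values from -0.11 to 0.97. For 26 members all H2B/p53dIEC libraries lay above all H2BdIEC libraries, against 23.0% of all genes. Against control organoids, with which this comparison shares the H2B/p53dIEC libraries, 24 rose and 0 fell (16.7% and 16.6% of genes), with a median of 0.40 and 28 members without overlap (27.2% of genes).

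Nle1, the large subunit factor that partners Mdn1, gave the highest fold change. It was at 19.9, 20.3 and 22.6 CPM in control, 17.4, 25.1 and 26.6 CPM in H2BdIEC and 50.5, 43.5 and 44.7 CPM in H2B/p53dIEC organoids. The last group lay clear of both others (log2 fold change 0.97 ± 0.13, adjusted p = 0.000196 against H2BdIEC, and 1.14 ± 0.12, adjusted p = 3.2e-05, against control). Other large subunit factors rose less, namely Ppan (0.63, at 97.7, 95.02 and 85.4 CPM in H2B/p53dIEC organoids), Rrs1 (0.35), Nop2 (0.35), Ddx21 (0.33) and Noc3l (0.24). Pes1, Wdr12, Nop16, Noc2l, Rrp1b and Bop1 did not pass against H2BdIEC, with log2 fold changes from -0.07 to 0.18, and Pes1 (0.19) and Wdr12 (0.25) rose against control.

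Polr1a was at 106, 98.3 and 102 CPM in control, 85.4, 99.4 and 91.5 CPM in H2BdIEC and 121, 118 and 119 CPM in H2B/p53dIEC organoids (log2 fold change 0.37 ± 0.07, adjusted p = 0.00234 against H2BdIEC). Polr1b was at 66.9, 58.9 and 66.7 CPM, 58.4, 70.3 and 73.7 CPM and 87.1, 84.2 and 82.9 CPM (log2 fold change 0.40 ± 0.09, adjusted p = 0.0036 against control). For both polymerase genes the H2B/p53dIEC libraries lay above all other organoids. Nolc1 was at 164, 146 and 182 CPM, 158, 162 and 169.8 CPM and 257, 235 and 235 CPM, also without overlap (log2 fold change 0.57 ± 0.08, adjusted p = 0.000418 against H2BdIEC). The 2 most abundant members, Npm1 (log2 fold change -0.11 ± 0.09, adjusted p = 0.363) and Ncl (log2 fold change 0.12 ± 0.07, adjusted p = 0.258), did not pass against H2BdIEC, and Ncl rose against control (0.32, adjusted p = 0.00586). Npm1 was at 420.2, 434 and 459.5 CPM in the H2B/p53dIEC organoids, within the range of the other groups.

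Of the snoRNP genes, Nhp2 was at 94.8, 87.3 and 103 CPM in control, 75.97, 97.7 and 102 CPM in H2BdIEC and 133, 129 and 129.6 CPM in H2B/p53dIEC organoids (log2 fold change 0.49 ± 0.10, adjusted p = 0.00317 against H2BdIEC). Dkc1 was at 104, 92.8 and 102 CPM, 119, 110.5 and 103 CPM and 129.6, 133 and 138 CPM (log2 fold change 0.42 ± 0.07, adjusted p = 0.00101 against control), and Nop58 at 225, 188 and 205 CPM, 240.3, 225 and 226 CPM and 270.0, 268 and 281 CPM (log2 fold change 0.24 ± 0.07, adjusted p = 0.0263 against H2BdIEC). In all 3 genes the H2B/p53dIEC libraries were the highest. Nop56 (0.38) and Gar1 (0.36) rose against H2BdIEC and did not pass against control (adjusted p = 0.0542 and 0.153). Fbl, at 35.7, 29.2 and 34.5 CPM, 16.9, 37.95 and 40.6 CPM and 31.2, 27.2 and 33.9 CPM, varied most between H2BdIEC libraries, with the shallow library A far below the other 2 (log2 fold change -0.11 ± 0.23, adjusted p = 0.756). Without library A, Fbl was called lower in H2B/p53dIEC than in H2BdIEC organoids (-0.36, adjusted p = 0.00918) and 25 members rose.

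Among the small subunit factors, Heatr1 was at 58.9, 53.7 and 59.9 CPM in control, 55.4, 60.1 and 61.5 CPM in H2BdIEC and 75.3, 78.8 and 77.8 CPM in H2B/p53dIEC organoids (log2 fold change 0.38 ± 0.07, adjusted p = 0.00187 against H2BdIEC). Tsr1 was at 117, 101 and 109.6 CPM, 132, 121 and 120.0 CPM and 159, 156 and 155 CPM (log2 fold change 0.52 ± 0.07, adjusted p = 0.000189 against control). Both were highest in all 3 H2B/p53dIEC libraries. Rrp12 (0.66), Bysl (0.42), Noc4l (0.39), Wdr75 (0.32) and Wdr43 (0.27) rose against H2BdIEC, Utp20 passed against control (0.57) and not against H2BdIEC (0.22, adjusted p = 0.0561), and Rrp9 and Nop14 passed in neither. The regulators Mybbp1a, at 311, 274 and 332 CPM, 260.4, 308 and 308 CPM and 431, 409 and 432 CPM (log2 fold change 0.53 ± 0.09, adjusted p = 0.000826 against H2BdIEC), and Gnl3, at 105, 89.7 and 98.2 CPM, 103, 101 and 104 CPM and 127, 140.4 and 140.3 CPM (log2 fold change 0.48 ± 0.07, adjusted p = 0.000425 against control), did not overlap the other genotypes.

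**Figure D5:**
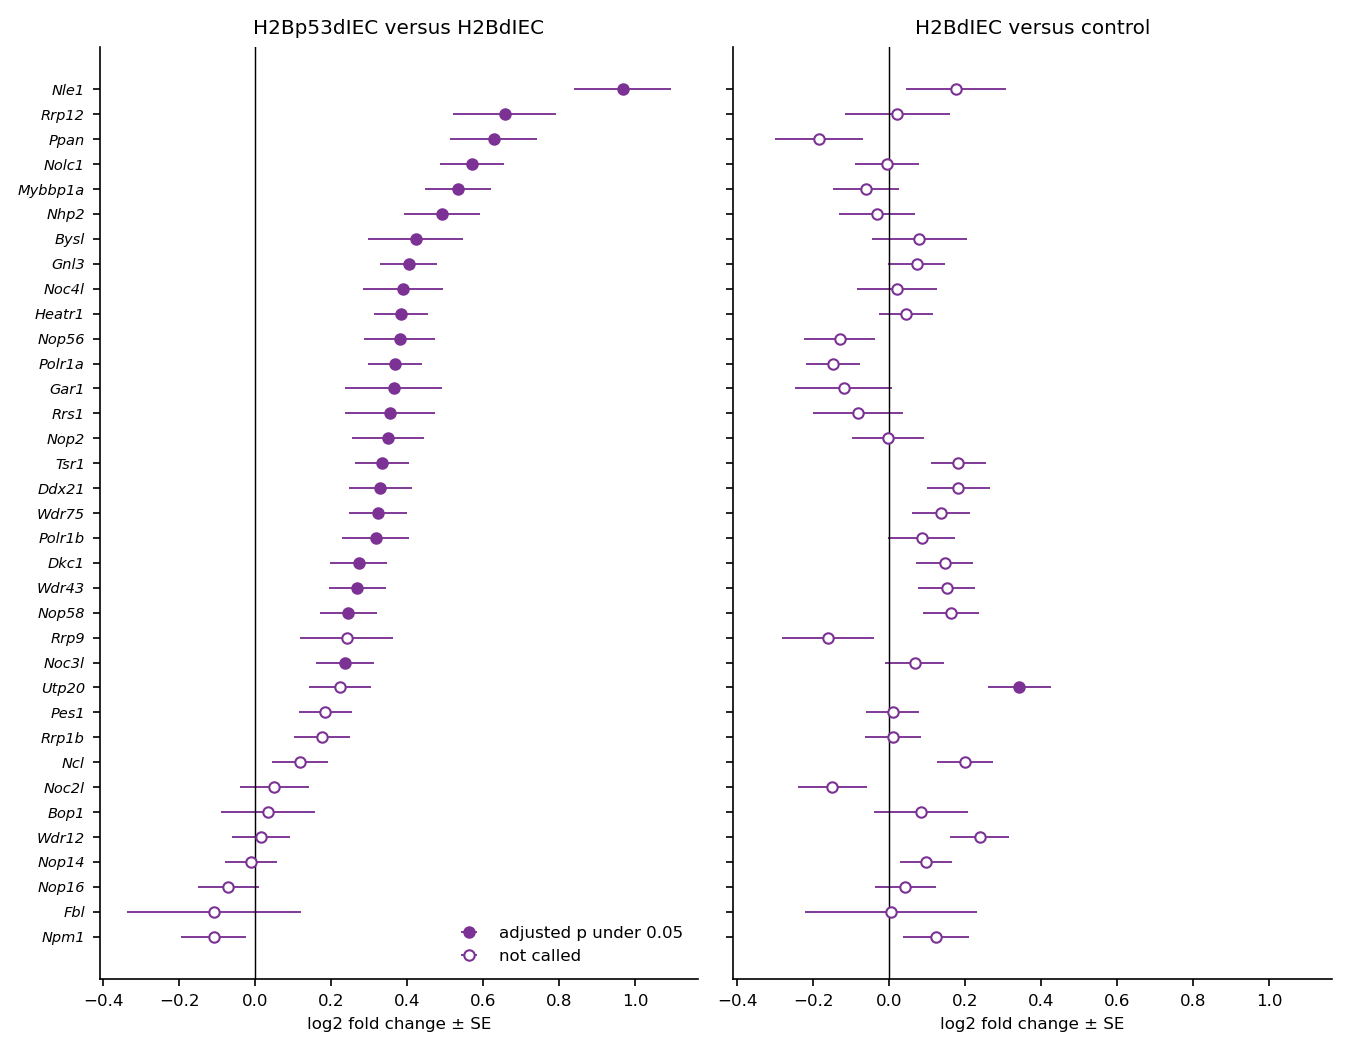
Log2 fold change with its SE (x axis) of the 35 members (y axis, ordered by the left panel) in organoids, for H2B/p53dIEC against H2BdIEC (left) and H2BdIEC against control (right), with filled points where the adjusted p was under 0.05. The left panel runs from -0.11 to 0.97 with 23 filled points, led by Nle1, and the right panel has 1, Utp20.

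Of the other ribosome biogenesis genes, 33 of 147 rose and 5 fell against H2BdIEC (median 0.13), with Exosc1 (0.61, adjusted p = 0.000351), Ftsj3 (0.49, adjusted p = 0.000769) and Urb2 (0.42, adjusted p = 0.00138) at the smallest p. Against control, 57 rose and 3 fell (median 0.21), led by Ddx56 (0.58), Ddx51 (0.70) and Tsr2 (0.76). Mycl rose against both H2BdIEC (0.73, adjusted p = 9.47e-05) and control (0.50, adjusted p = 0.000726), while Myc gave 0.16 (adjusted p = 0.292) and -0.13 (adjusted p = 0.359) and Mycn 0.13 (adjusted p = 0.573) and -0.12 (adjusted p = 0.549) in the same order. Of the members with an E-box, 5 of 7 rose against H2BdIEC, with a median of 0.33, and 16 of 23 without it, with a median of 0.32. Against H2BdIEC, 7 of 10 stem cell markers (summed 2981 to 3208 CPM in H2BdIEC and 3856 to 3970 CPM in H2B/p53dIEC organoids) and 10 of 22 proliferation genes rose (median 0.21), Mki67 gave 0.02 (adjusted p = 0.905; -0.05, adjusted p = 0.789, against control), and 4 of 9 epithelial markers fell. Their part in the members' rise was not tested.

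The tumor comparison with adjacent tissue and the organoid comparison of H2B/p53dIEC with H2BdIEC share no library. Of the members, 20 rose in both, against 5.96% of the 13121 genes tested in both (24.1% of those rose in tumors and 15.5% in organoids). The 20 are 64.5% of the 31 that rose in tumors, near the 65.7% of all 35 members that rose in organoids. They are 87.0% of the 23 that rose in organoids, near the 88.6% of all 35 that rose in tumors. The overlap therefore does not show agreement member by member. Bop1 passed in neither. Ddx21, Heatr1 and Noc3l passed in organoids and not in tumors, and 11 members passed in tumors and not in organoids, among them the abundant Ncl, Npm1 and Fbl. The difference between the 2 materials was not tested. The sizes differed in scale, with medians of 1.03 in tumors and 0.32 in organoids.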

How the data were processed

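Polyadenylated RNA of 29 libraries was sequenced with a stranded kit, per the labels' protocols. The deposited files hold raw counts per Ensembl gene. Per the submitters' processing notes, reads were processed with cutadapt 1.5 and 1.9, Trimmomatic 0.36, TopHat2 2.0.14 and HTSeq on GRCm38; the strand setting and annotation are not given in the sources used here. The crypt, tissue and organoid sets were analysed separately, since their gene identifiers differ. Identifiers matched to no GENCODE M21 gene held 0.0323% of the crypt, 0.0479% of the tissue and 0.0075% of the organoid counts.

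Counts were tested with edgeR 4.0.16 (R 4.3.3; TMM factors, filterByExpr, robust quasi-likelihood F test) across all genes of a set, with 1 coefficient per group and Benjamini-Hochberg adjustment at 0.05. CPM values use TMM-scaled library sizes, list means log2 CPM with a prior count of 2, and ratios within mice a pseudocount of 0.5 CPM. The test was checked on simulated data. Alternatives were DESeq2 1.42.0, other size factors, other filters, 2-group fits, replicate blocks and leaving out each library. Near-identical copies were searched with blastn 2.17.0.

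The members and gene lists were chosen with earlier results of these data known. Values in every library are given for the member of each role with the smallest p in each comparison, for members called against the majority and for others singled out after their values were seen; of other ribosome biogenesis genes the 3 with the smallest p are named. Ratios within mice and the replicate block paired tumor and adjacent tissue by mouse, while the main test did not. Deviations from the group means of same-numbered libraries correlated at 0.156 (mouse 1349), -0.164 (1323), 0.12 (1322) and 0.0641 (1319). A library of another mouse correlated more highly for mice 1349 (0.164), 1323 (0.171) and 1319 (0.138). These correlations therefore do not bear out the pairing, which rests on the mouse numbers. Figures were drawn with matplotlib 3.10.9.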

Additional observations from a re-analysis of the deposited data

Results flagged for a closer look

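In groups of 4 libraries, the highest or lowest value was compared with the rest by Dixon's ratio, which by chance exceeds its 95% critical value in about 1 in 20 groups; 43 groups were tested and 2 exceeded it. Rrp12 stood at 21.22 CPM in the adjacent tissue of mouse 1349, far above the 13.5 to 13.6 CPM of the other 3 adjacent libraries. Npm1 stood at 133.0 CPM in H2BdIEC crypt library 2, far below the 199 to 206 CPM of the other 3.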

How the results depend on the processing

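No call of a member changed sign under any alternative. Of the members called, 27 of 31 (tumor against adjacent tissue), 32 of 33 (tumor against control), 12 of 23 (H2B/p53dIEC against H2BdIEC organoids) and 19 of 24 (against control) kept their call under every alternative run; in tumors Nop58 lost it in 7 of 16, Dkc1 in 6, Rrp9 in 2 and Rrp12 in 1. In crypts the count of 1 higher became 0 with upper-quartile factors or no low-count filter, 4 with DESeq2 (and 1 lower), and 0 to 1 when single libraries were left out. In adjacent against control tissue 0 became 1 with DESeq2 size factors, 2 with upper-quartile factors or only the 2 groups in the fit, and 7 with the DESeq2 test. In H2BdIEC against control organoids 1 became 0 with only the 2 groups, and 0 to 2 without single libraries. In H2B/p53dIEC against H2BdIEC organoids, leaving out single libraries gave 14 to 25 higher (15 without H2BdIEC B or H2B/p53dIEC 1, 14 without H2B/p53dIEC 2, each named since it moves the count by over 1.5 times) and 0 to 1 lower (Fbl, without H2BdIEC A). The counts ranged from 27 to 33 for tumor against adjacent tissue, 32 to 34 for tumor against control and 20 to 28 for H2B/p53dIEC against control organoids. With the mouse as a replicate block 31 members rose and no call of a member changed. Organoid letters pair nothing in the labels (same-letter correlations 0.000902, -0.178 and 0.102 for A, B and C); with the letter as a replicate block the organoid count of 1 became 0, as Utp20 gave 0.36 (adjusted p = 0.167) in place of 0.34 (adjusted p = 0.0368). Leaving control 1320 out of the tumor against adjacent fit, chosen after seeing the data, gave 31 members and a median of 1.02. Scaling moved the median of all genes by at most 0.0828. Control 1320, with 2 to 64 counts per member, adds counting error to control tissue; 3 organoid libraries a group and their unknown origin limit the organoid tests.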
